A study of Mus musculus with 8 samples.

Results

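Dense distal clusters are stretches of chromatin away from gene starts in which many short accessible regions lie close together. Here they were taken in untreated B3 cells, an established pre-B line of the mouse that carries Ikaros-ERt2. On addition of 4-hydroxytamoxifen (4-OHT) this fusion of the transcription factor Ikaros (IKZF1) enters the nucleus. Open DNA was cut and tagged with the Tn5 transposase (ATAC-seq) in untreated cells (0 h) and after 500 nM 4-OHT for 30 min, for 1 h and for 2 h. Each of these 4 groups had 2 replicates, so that there were 8 libraries, and all 8 came from cells carrying the transgene. The study's methods state a retroviral IKZF1 vector with a GFP marker and sorting of GFP-positive cells. No 0 h library had 4-OHT or its solvent, so an effect of the drug cannot be told apart from one of IKZF1. Nothing states that replicates were separate cultures, and p-values measure only the spread between these samples.

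The members were chosen by their peaks at 0 h. A consensus region was kept if both 0 h lists had a peak in it and if it lay over 2.5 kb from every annotated start site of GENCODE M21 on GRCm38. Kept regions with gaps of at most 5 kb were chained, and those in chains of 5 or more are the members. This gave 1310 members in 228 clusters, out of 174718 consensus regions, 69814 regions with a peak in both 0 h lists and 43244 distal ones. Of the 1310 members, 872 had a peak in all 8 lists and could be tested for a change in level. The others had no peak in at least one list after treatment, and are described by presence alone.

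Clusters of this kind are usually read as groups of enhancers, DNA elements that bind transcription factors and raise the transcription of genes at a distance. In lymphoid cells such groups often lie near genes of cell identity and signalling, and the largest of them are known as super-enhancers. IKZF1 is a zinc finger factor of lymphoid cells that recognises a core of GGGAA and works with corepressor complexes such as NuRD, which remodels nucleosomes and removes acetyl groups from histones. Its entry into the nucleus therefore allows a question on scale: whether the elements of a cluster close or open together, or one by one.

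The sequences of 7 members are given first because the answer turns on single members. They are the 200 bases around the summit in 0 h replicate 1, on the forward strand of GRCm38, with every GGGAA or its reverse complement TTCCC in capitals. The first 2 are among the members that fell most in rank by 2 h, from the clusters near Jak1 (chr4:101298380-101298579) and near Zfp36l2 (chr17:84112484-84112683), and the third rose most, near Gal (chr19:3430904-3431103). The other four are pairs of opposite movers that share a cluster: in Zdhhc19, a member that fell (chr16:32524025-32524224) and a member that rose (chr16:32509576-32509775), and near Parp8, likewise (chr13:117033749-117033948 and chr13:117035229-117035428). All but the Zdhhc19 windows lie between genes or in introns of non-coding genes, and the Zdhhc19 windows lie in introns.
Jak1 member 4, fell: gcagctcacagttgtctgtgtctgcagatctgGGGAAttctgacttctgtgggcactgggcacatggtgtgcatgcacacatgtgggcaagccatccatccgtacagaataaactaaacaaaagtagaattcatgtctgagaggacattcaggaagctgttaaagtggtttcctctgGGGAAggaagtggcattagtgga
Zfp36l2 member 1, fell: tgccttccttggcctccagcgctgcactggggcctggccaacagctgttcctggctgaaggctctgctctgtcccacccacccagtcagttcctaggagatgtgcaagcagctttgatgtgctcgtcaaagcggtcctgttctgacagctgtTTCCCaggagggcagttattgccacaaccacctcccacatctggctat
Gal member 4, rose: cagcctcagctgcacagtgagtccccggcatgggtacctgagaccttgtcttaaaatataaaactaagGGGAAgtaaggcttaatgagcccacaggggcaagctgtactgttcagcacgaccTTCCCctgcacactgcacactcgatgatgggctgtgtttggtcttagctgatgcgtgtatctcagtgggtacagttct
Zdhhc19 member 8, fell: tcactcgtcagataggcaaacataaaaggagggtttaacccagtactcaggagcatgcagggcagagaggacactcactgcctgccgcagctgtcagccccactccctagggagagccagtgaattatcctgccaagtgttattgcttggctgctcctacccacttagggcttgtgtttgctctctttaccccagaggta
Zdhhc19 member 2, rose: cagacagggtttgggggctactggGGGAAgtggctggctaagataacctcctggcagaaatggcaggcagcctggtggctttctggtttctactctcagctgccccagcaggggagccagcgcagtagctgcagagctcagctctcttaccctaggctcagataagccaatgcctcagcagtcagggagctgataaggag
Parp8 member 2, fell: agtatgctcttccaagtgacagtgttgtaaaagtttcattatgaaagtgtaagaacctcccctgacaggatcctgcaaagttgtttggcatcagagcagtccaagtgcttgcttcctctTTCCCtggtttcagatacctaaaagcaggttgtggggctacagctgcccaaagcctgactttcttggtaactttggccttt
Parp8 member 6, rose: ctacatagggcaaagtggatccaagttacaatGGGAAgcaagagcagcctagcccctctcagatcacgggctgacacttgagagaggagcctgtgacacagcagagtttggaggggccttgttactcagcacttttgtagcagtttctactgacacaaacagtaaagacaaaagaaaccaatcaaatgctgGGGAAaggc
The core was present in 3 of the 4 windows that fell and in all 3 that rose. These 7 windows do not show the shares over all called members. On ranks the core was in 61.2% of the 67 members lower at 2 h and in 13.6% of the 22 higher ones. The 3 printed windows that rose are the only ones of those 22 that held it. Member 8 of Zdhhc19, the printed window without the core, held a match to the motif of EBF, the early B cell factor. No printed window held a CTCF match.

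The clusters were short. The median cluster held 5 members and spanned 8806 bp, with a range from 1969 to 20099 bp, and 128 clusters held 5 members, 61 held 6 and 39 held 7 or more. The largest had 11. Neighbouring members were separated by a median of 1179 bp, and 73 of the 1082 joined gaps were over 4.5 kb. Every one of the 21 chromosomes with peaks had at least 1 cluster, with 19 on chromosome 4 and 3 each on X and Y. Median distance from a member to the closest start site was 14883 bp, against 12311 bp for the other 41934 distal regions.

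On either side of the thresholds the values were these. Regions in chains of 4, just outside, had medians of 24 and 17 summit fragments in the 0 h replicates, those in chains of 5 had 26 and 20, and those in longer chains 30 and 22. At 2 h no peak was found in 19.7% of the regions in chains of 4, in 20.2% of those in chains of 5 and in 19.1% of those in longer chains. Of the tested regions 7.63%, 8.73% and 6.70% in these 3 sets were lower at 2 h by limma on ranks of fold enrichment, and 15%, 16.0% and 16.1% on fragments at the summit. The 13 members within 3 kb of a start site had 31 and 21 fragments at 0 h, and the 1952 regions from 2 to 2.5 kb away had 17 and 12.

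By construction no start site lies inside a cluster, and the count was 0. What the clusters hold are gene bodies. A coding gene overlapped 103 of the 228 clusters, 14 overlapped only a non-coding gene or pseudogene, and 111 overlapped no gene. The summit lay between genes for 52.8% of members, in an intron for 43.5%, in a coding exon for 1.3%, in an untranslated exon for 1.53% and in a non-coding exon for 0.840%. Among the other distal regions 46.4% lay between genes and 49.6% in an intron. The nearest coding start site was a median of 16335 bp from the cluster. A nearest gene is a position only, since no expression was measured in these libraries.

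Gene lists fixed for this work were set against the clusters. The clusters overlapped 104 distinct coding genes. The share of all genes that a cluster overlapped or lay nearest to was not counted, so the counts below have no such share beside them. Of 20 transcription factors of the B lineage, 6 were overlapped by a cluster or were its nearest gene, namely Ikzf1, Foxo1, Bach2, Irf8, Erg and Mef2c. The cluster in Ikzf1 depends on members in coding exons that may hold vector fragments, as described below. Of 19 genes of the pre-B receptor and its signalling there were 2, Igll1 (the surrogate light chain λ5) and Plcg2 (a phospholipase downstream of the B cell receptor). None of 9 cell cycle genes and none of 8 adhesion genes had one. Of 19 genes called repressed in the text of the study there were 3: Igll1, Ramp1 and Plekho2. That last list was chosen by the study on these cells and is no independent evidence of direction.

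The cell type label was checked at the start sites of marker genes. Both 0 h lists had a peak within 1 kb of a start site for 9 of 10 pre-B markers, for 1 of 5 T cell markers (Cd28), 1 of 5 myeloid (Lyz2), 0 of 4 erythroid and 2 of 4 fibroblast markers (Col1a1 and Pdgfra). A peak at a start site is not expression, and no part of these markers in the results was tested. The lists held 85903 to 103897 peaks, and the depth of a library, read as the caller's genome-wide background, ran from 0.26 to 0.405 fragments per base.

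The level of each member was measured in 2 ways. The first is its percentile, from 0 to 100, among the 47875 regions found in all 8 lists, when each list was sorted by the deposited fold enrichment. That fold divides the fragments at the summit, with 1 added, by a local background, also with 1 added, which the caller averages over several kilobases around the peak, since there was no control library. In a dense cluster this background contains the fragments of the neighbouring members. The second measure is the number of fragments at the summit, recovered from the deposited fold and p-value, over the background of the library, as a log2 value centred on the median of each library. No neighbour enters it. Fragment counts printed for members are as recovered and are not adjusted for the depth of the library. The scales differed at 0 h. The median member had 28 and 21 fragments at its summit in the 2 replicates, against 12 and 9 for solitary distal regions. Its local background was 2.60 and 1.86 fragments per base, against 0.389 and 0.260 around solitary ones, and the tested members stood at median percentiles of 36 and 40.0. These 0 h values come from the lists that chose the members and are given as a description.

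Presence was compared first. Peaks were found in 1094 and 1076 of the 1310 members in the 30 min lists, in 1032 and 997 in the 1 h lists, and in 996 and 981 in the 2 h lists. The 2 lists of 30 min each held more members than any list of 1 h or 2 h. Members had to be present at 0 h, so their number could only fall. A member is called lost where neither list of a time point had a peak in it. At 30 min 174 members (13.3%) were lost, at 1 h 242 (18.5%) and at 2 h 257 (19.6%), where the same share over all 69814 regions with a peak in both 0 h lists was 10.9%, 14.6% and 16.6%. Solitary distal regions, chosen in the same way at 0 h, were lost in 13.4%, 17.3% and 19.3% of cases, and regions of chains of 2 to 4 in 12.5%, 17% and 19.5%. The share for regions within 2.5 kb of a start site was 7.44%, 10.2% and 12%. Regions are not replicates, and these classes were set side by side without a test.

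Most members lost at 30 min or at 1 h were also lost at 2 h. Of the 174 members lost at 30 min, 156 were lost at 2 h as well, 149 were lost at all 3 times, and 0 were back in both 2 h lists. Of the 242 lost at 1 h, 202 were lost at 2 h. The same counts were not made for other regions, so lasting loss is not shown to be particular to clusters. Members lost at 2 h had a median of 20 and 15 fragments in the 0 h replicates, against 32 and 24 for members kept in both 2 h lists and 10 and 7 for other distal regions that were lost. More than 20 fragments in both 0 h lists were present in 68 of the 257 members lost at 2 h. Their local background at 0 h was 2.46 and 1.76 fragments per base, against 2.74 and 1.93 for kept members. The part of starting level in the losses was not tested.

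No cluster was lost as a whole. With 19.6% of members lost at 2 h, loss of every member of a cluster would be rare even if members were lost separately. The counts per cluster therefore do not show whether members were lost together. At 2 h 63 clusters had lost no member, 94 had lost 1, 54 had lost 2, 13 had lost 3 and 4 had lost 4. At least 1 member was lost in 165 clusters, and at least 50% of the members in 10. New peaks appeared in the same stretches. Within the spans of the clusters, 83 regions with no peak in either 0 h list had one in both 2 h lists, in 73 clusters, 55 of which had also lost a member. Such gains numbered 48 at 30 min and 69 at 1 h. Over all consensus regions 16223 were gained at 2 h, 12086 of them distal.

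Among clusters of 6 or more members, those with the largest share lost at 2 h included clusters in Zmiz1 (a coregulator of transcription), in Heg1, near Fam229a and near Osgin1. Each kept 2 to 4 of its members in at least one 2 h list. Near Osgin1 4 of 8 members were lost at all 3 times, in Zmiz1 2, 3 and 4 of 7, in Heg1 3 of 6 at each time, and near Fam229a 3, 2 and 4 of 6.

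**Figure D1:**
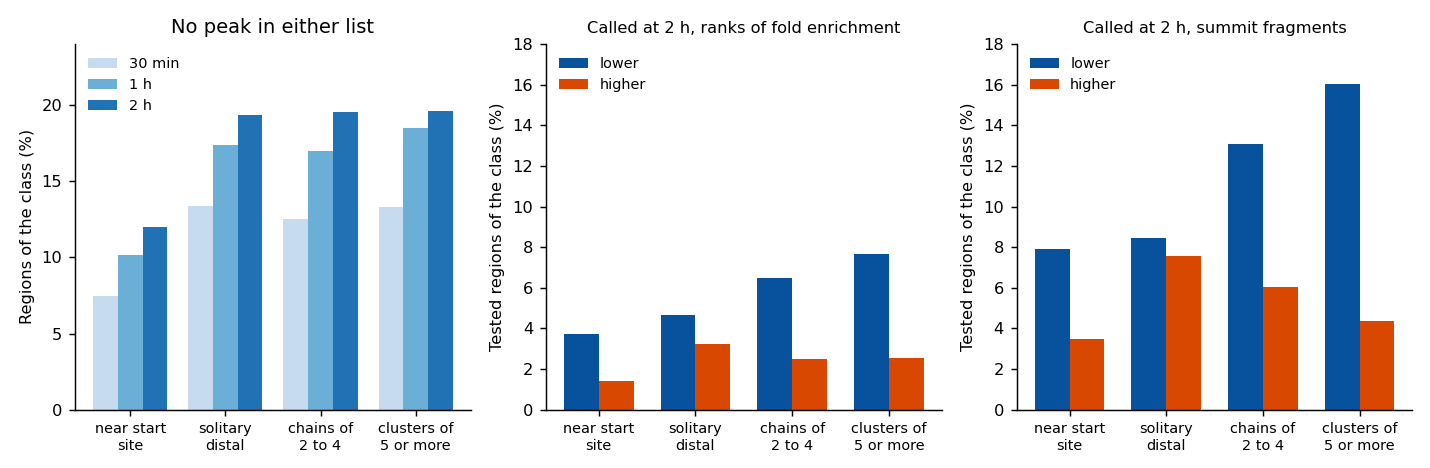
Regions with a peak in both 0 h lists, in 4 classes by distance to start sites and by chain length. The left panel gives the share with no peak in either list at 30 min, 1 h and 2 h, and the other panels the share of tested regions called lower or higher at 2 h by limma on ranks of fold enrichment and on summit fragments (adjusted p under 0.01). Loss at 2 h is 19.6% in clusters, 19.5% in chains of 2 to 4 and 19.3% in solitary distal regions, while the share called lower is higher in chains of 2 to 4 than in solitary regions and highest in clusters, at 7.68% and 16.1%.

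Levels were then tested with limma over all regions with a peak in all 8 lists, with a Benjamini-Hochberg adjusted p under 0.01 as the threshold. On ranks, 67 of the 872 tested members (7.68%) were lower at 2 h and 22 (2.52%) were higher, where over all 47875 tested regions 4.71% were lower and 2.28% higher. At 1 h 32 members were lower and 9 higher, against 2.51% and 1.1% of all tested regions, and 29 of the 32 and all 9 were called again at 2 h. At 30 min limma called 0 members in either direction, as it called 0% of all tested regions, although 116 members (13.3%) were lower and 104 (11.9%) higher where an unadjusted p under 0.05 is used, as were 9.94% and 9.51% of all tested regions. The share lower at 2 h was 6.48% in chains of 2 to 4, 4.67% in solitary distal regions and 3.72% within 2.5 kb of a start site. A tested member had to keep its peak in every list, so those that fell below detection are not among these counts.

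These calls rest on both replicates of 0 h and of 2 h. With 0 h replicate 1 left out 10 members were lower and 2 higher at 2 h, and with 0 h replicate 2 left out none was. Without 2 h replicate 1 13 were lower and 0 higher, and without 2 h replicate 2 7 were lower and 0 higher. The calls at 1 h fell to 0 in both directions without any 1 of the 0 h or 1 h libraries. In each of these fits the group has a single library that is assumed to vary like the others.

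On summit fragments more members passed the same threshold. At 2 h 140 members (16.1%) were lower and 38 (4.36%) higher, against 9.37% and 5.43% of all 47869 regions with such values. At 1 h 111 were lower and 30 higher, against 6.62% and 3.48%, and at 30 min 22 were lower and 0 higher, against 1.3% and 0.322%. All 67 members lower on ranks were lower on fragments, and of the 22 higher on ranks 16 were higher on fragments and 6 were not called. None was called in opposite directions. Of the 140, 102 were already lower at 1 h and 22 at 30 min. Chains of 2 to 4 had 13.1% lower and 6.02% higher at 2 h, and solitary distal regions 8.45% and 7.56%. On fragments, over these 3 classes, the share lower was highest in clusters and the share higher was lowest there. On ranks the share higher at 2 h was 2.52% in clusters, 2.49% in chains of 2 to 4 and 3.25% in solitary distal regions. Within groups of like 0 h fragments the order was not always the same, as given below. Leaving out a 0 h or a 2 h library brought the members lower at 2 h to between 77 and 81 and those higher to between 9 and 15, and members lower at 30 min fell to 0 without any 1 of the 0 h or 30 min libraries. At 1 h 33 to 44 were lower and 2 to 5 higher without a 0 h or a 1 h library. Where the largest gap of a chain was 3 kb, 11.4% of tested members were lower on fragments and 4.92% on ranks.

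A difference in starting level went along with this excess. When all tested regions were split into 5 groups of about equal size by their fragments at 0 h, 259 of the 872 members were in the highest group and 32 in the lowest. Within the highest group 99 of 259 members (38.2%) were lower at 2 h on fragments, as were 38.1% of the 3331 other distal regions and 23.9% of all tested regions. In the next group 10.8% of 269 members were lower, 21.3% of 4257 other distal regions and 15.1% of all. The middle group had 5.34% of 206 members, 8.18% of 5344 other distal regions and 6.21% of all. For higher calls, the second lowest group gave 12.3% of 106 members and 6.75% of 6383 other distal regions. The share of members lower was above that of all tested regions in the highest group, and there it was close to that of other distal regions. The 0 h libraries chose the members and enter both the grouping and the contrast, so part of this comes with the construction, and the part of starting level in the calls was not tested.

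**Figure D2:**
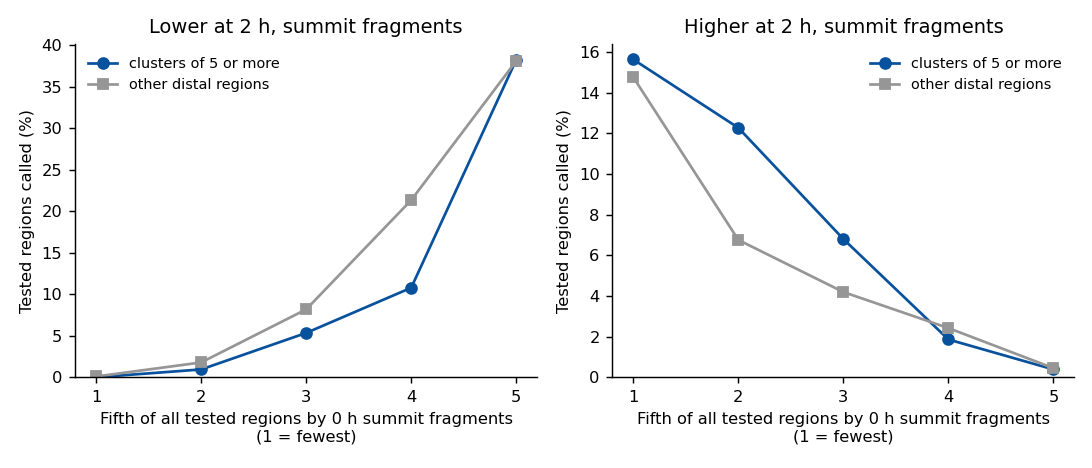
Share of tested regions called lower (left) or higher (right) at 2 h on summit fragments, within 5 groups of about equal size of all tested regions by 0 h fragments, for members of clusters and for other distal regions. The lines meet at 38.2% and 38.1% in the highest group for lower calls.

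Called members moved in steps over the 3 times. The 67 members lower at 2 h had mean percentiles of 62.7 and 65.8 in the 0 h replicates, then 31.4 and 34.5 (30 min), 18.8 and 18.1 (1 h) and finally 12.2 and 11.2 (2 h). The 22 higher ones stood at 10.9 and 12.6, then 35.5 and 32.6, 43.2 and 47.9, and 55.7 and 56.1. Those 783 that were not called stayed between 37.2 and 41.1 in every library. The 0 h and 2 h levels of called members follow from the call, and the 30 min and 1 h levels lie between them in both directions. No 0 h library enters the contrast of 2 h with 30 min: there limma called 0 members, and an unadjusted p under 0.05 was found for 105 members lower at 2 h (12%) and 49 higher (5.62%), against 9.12% and 7.81% of all tested regions. On fragments the same contrast called 0 members at the threshold, with 164 lower (18.8%) and 45 higher (5.16%) when p was not adjusted and had to be under 0.05, against 11.6% and 8.34% of all tested regions.

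The 5 members that fell most in rank lay in 5 clusters, 4 of which are given here. Member 4 of the cluster near Jak1, a kinase of cytokine receptors, had 109 and 74 fragments at its summit at 0 h, then 42 and 32 (30 min), 19 and 23 (1 h) and finally 14 and 16 (2 h). Its percentile went from 89.6 and 89.4 at 0 h to 2.4 and 7.6 at 2 h, and the groups did not overlap. On the fragment scale it fell by 2.77 ± 0.24 (SE) in log2 (limma adjusted p = 0.000116; 0.00106 on ranks). The other 4 members of that cluster did not pass on either scale, with log2 shifts of -0.96, -0.12, -0.83 and -0.33.

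Member 1 of the cluster in Pip4k2a, which encodes a phosphatidylinositol kinase, had 76 and 59 fragments at 0 h, then 21 and 15 (30 min), 16 and 12 (1 h) and finally 13 and 10 (2 h). Member 1 of the cluster near Zfp36l2, an RNA-binding protein of lymphocyte development, had 89 and 67 fragments at 0 h, then 36 and 30 (30 min), 22 and 20 (1 h) and finally 14 and 16 (2 h). In both, every library after 0 h was below both 0 h libraries. Member 3 of the cluster near Ndufb3, a subunit of respiratory complex I, had 52 and 46 fragments at 0 h, then 30 in both lists (30 min), 20 and 19 (1 h) and finally 10 and 7 (2 h). Among these 5 it kept the highest percentile at 1 h, 31.6 and 37.5.

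The members that rose most were near Gal and Cd24a, near Lrrc8c, and in Spns2 and Kif21b. Near Gal, member 4 had 13 and 9 fragments at 0 h, then 36 and 22 (30 min), 40 and 46 (1 h) and finally 61 and 56 (2 h). It rose by 2.25 ± 0.23 (SE) in log2 (limma adjusted p = 0.00019; 0.00226 on ranks). Member 2 of the cluster in Spns2, a transporter of sphingosine-1-phosphate, had 20 and 16 fragments at 0 h, then 46 and 38 (30 min), 52 and 45 (1 h) and finally 54 and 55 (2 h). Its log2 rise was 1.08 at 30 min and 1.42 at 2 h. Near Cd24a, a surface protein of early B cells, member 1 had 11 and 12 fragments at 0 h, then 23 and 18 (30 min), 30 and 33 (1 h) and finally 56 and 33 (2 h), where the replicates differed more than at any earlier time. Member 5 of Kif21b had 23 and 24 at 0 h, against 71 and 63 at 2 h, and member 2 near Lrrc8c 31 and 16 at 0 h, 58 in both lists at 30 min and 67 and 64 at 2 h.

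The central question was whether clusters moved as units. On ranks 166 of the 228 clusters had 0 members lower at 2 h, 57 had 1 and 5 had 2, while 22 clusters had 1 member higher and none had more. In 7 clusters a member was lower and another higher. Of the 191 clusters with at least 3 tested members, 2 had at least 50% of them lower and 0 had at least 50% higher. Without any 1 of the 0 h or 2 h libraries the 2 became 0. All tested members shifted down in 10 of the 191 and up in 8, called or not. On fragments 66 clusters had 1 member lower at 2 h, 26 had 2, 6 had 3 and 1 had 4. At least 50% of the tested members were lower in 21 of 191 clusters and at least 50% higher in 1, and in 11 clusters one member was lower and another higher. The count with all tested members lower was 0 of 191. All shifted down in 29 and up in 16. With 2 replicates a member that moved can miss the threshold, and lost members are not among the tested ones. Counts of calls alone can therefore not decide whether a cluster moved as a unit.

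Shifts differed widely inside clusters. Across the 129 clusters with 4 or more tested members, the distance between the most negative and the most positive shift from 0 h to 2 h had a median of 1.60 in log2 fragments and of 52.0 percentile points. The means of these clusters ran from -1.74 to 1.01 in log2 fragments with an SD of 0.49, against an SD of 0.83 over single members. A mean over several members varies less than single members by construction. The 2 SDs therefore do not show whether members moved together.

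**Figure D3:**
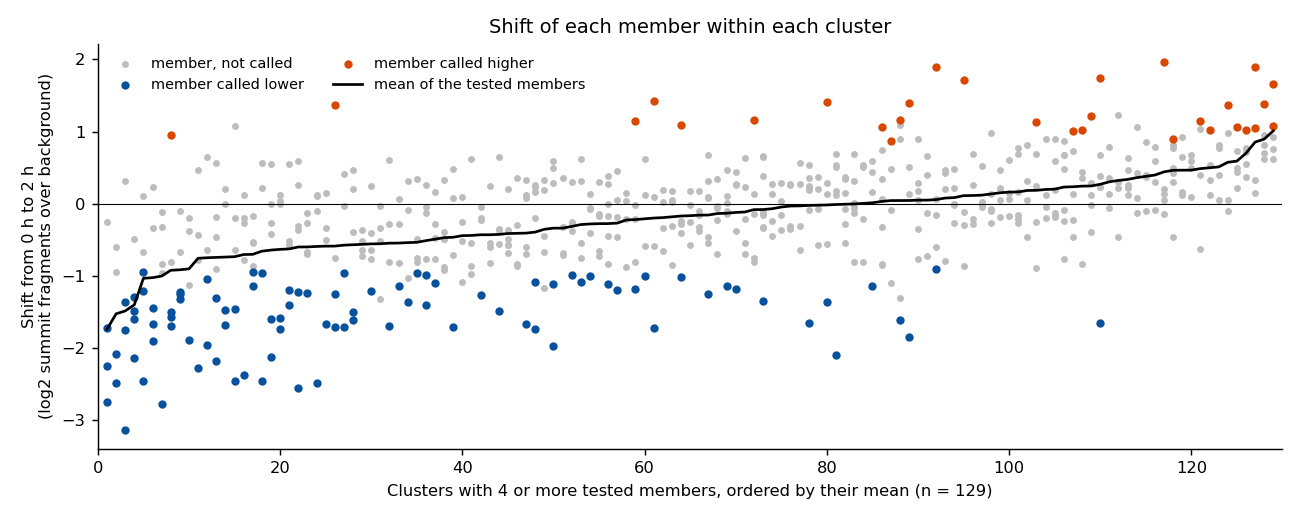
Shift of log2 summit fragments from 0 h to 2 h for each tested member (points) of the 129 clusters with at least 4 tested members, ordered by the cluster mean (black line), with members called at an adjusted p under 0.01 in colour. Cluster means run from -1.74 to 1.01, and the members of a cluster spread over a median of 1.60.

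A second view used the replicates apart. The shift of a member in the first replicates (2 h minus 0 h) was compared with its own shift in the second replicates, and with the shifts of the other members of its cluster in the second replicates, so that no library was on both sides. The covariance with neighbours as a share of the covariance with itself gives the part of the repeatable shift that a cluster had in common. On fragments, a member's shift correlated with itself at r = 0.84 across 872 members, and the common part was 16.8% over 1457 pairs of neighbours. It was 11.2% at 30 min and 14.2% at 1 h, and 22.0% for 2 h against 30 min, which uses no 0 h library. In chains of 2 to 4 the common part at 2 h was 25.1% over 5000 pairs. Pairs under 1 kb apart had 26.4%, those 1 to 2 kb apart 20.7%, those 2 to 5 kb apart 22.4%, those 5 to 10 kb apart 9.30% and those over 10 kb apart 2.90%. The share was highest for the closest pairs and lowest for the most distant ones. These are descriptions across regions that share libraries, and carry no p.

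On the percentile of fold the sign turned. There the common part at 2 h was -10.6%, with r = 0.81 for a member with itself, and it was -5.64% for 2 h against 30 min. For the local background the common part was 74.3% at 2 h, and 100.1% in chains of 2 to 4. The stretches over which it is averaged overlap between neighbours, so a high value follows by construction. Fold is fragments divided by that background, so a neighbour's fragments lower a member's fold by construction. Percentiles of the deposited -log10 p-value gave -0.0105%. Thus the sign of this small common part depends on the scale, and on every scale but the background most of a member's repeatable shift was its own.

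**Figure D4:**
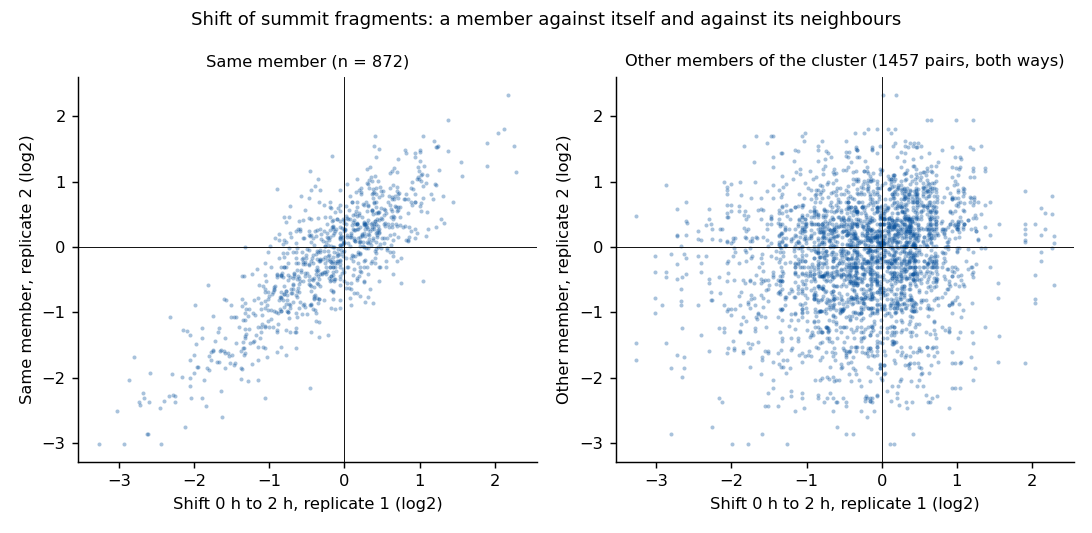
Shift of log2 summit fragments from 0 h to 2 h in the first replicates (horizontal axis) against the shift in the second replicates (vertical axis) of the same member (left, 872 points) and of the other members of its cluster (right, 1457 pairs in both orders). The points follow the diagonal on the left (r = 0.84) and form a broad cloud on the right.

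The surroundings of single members were read from the local background over that of the library. In a cluster this background contains the fragments of neighbouring members. It is therefore no separate measure of the DNA outside the clusters. Around the 872 tested members its median was 7.31 and 7.63 times the library background at 0 h, then 5.61 and 6.27 (30 min), 5.81 and 6.08 (1 h) and finally 5.81 and 5.71 (2 h). Both 0 h values were above all 6 later ones, and the later times overlapped. Around solitary distal regions it was 1.07 and 1.11 at 0 h, against 1.29 and 1.3 at 2 h, and around chains of 2 to 4 it was 2.69 and 2.82, against 2.73 and 2.70. Of the 191 clusters with at least 3 tested members, 63.4% had a lower mean at 30 min in both replicates and 24.1% a higher one, and 55.5% and 29.3% at 2 h. Since the clusters were picked for their density of peaks at 0 h, the step from 0 h is a description, and how much of it comes with that choice was not tested.

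Of the clusters with the largest fall in mean percentile, that near Sox9 had the lowest mean shift in log2 fragments, -1.74. It lies 273882 bp from Sox9 in introns of the non-coding gene 2610035D17Rik. Its member 5 had 65 and 47 fragments at 0 h, then 17 and 14 (30 min), 11 and 16 (1 h) and finally 11 and 8 (2 h), and members 2 and 3 fell from 55 and 32 to 19 and 11 and from 67 and 26 to 10 and 10. Member 4 had 61 and 38 fragments at 0 h and was lost at 2 h, while member 1, with 10 and 7, had 8 in both 2 h lists and was not called. The local background of this cluster went from 8.86 and 8.78 times that of the library at 0 h to 4.71 and 4.80 at 30 min and 3.64 and 3.38 at 2 h.

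In Mrvi1, members 1, 3 and 4 were lower on fragments and members 1 and 3 also on ranks. Member 3 had 139 and 97 fragments at 0 h, then 87 and 64 (30 min), 56 and 51 (1 h) and finally 43 and 40 (2 h). Members 5 and 7 of the same cluster had shifts of -0.34 and 0.24 in log2 and did not pass. Near Gm28285 members 2 and 3 were lower on both scales, and near Jak1 only the member described above.

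Near Parp8, on the other hand, opposite calls lay in 1 cluster of 6. Member 2 had 43 and 28 fragments at 0 h, then 15 and 16 (30 min), 13 and 13 (1 h) and finally 14 and 14 (2 h), and members 3 and 5 were lower on fragments as well. Member 6 had 19 and 13 fragments at 0 h, then 18 and 11 (30 min), 36 and 36 (1 h) and finally 37 and 32 (2 h). It rose by 0.95 ± 0.22 (SE) in log2 by 2 h (limma adjusted p = 0.00999, and 0.00447 on ranks). On that log2 scale its 30 min values, -0.42 and -0.86, lay below both 0 h values, -0.28 and -0.39. Its percentiles at 30 min and at 0 h overlapped.

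Zdhhc19, a palmitoyltransferase gene, held another such pair in a cluster of 9. Member 8 had 88 and 72 fragments at 0 h, then 51 and 55 (30 min), 41 in both lists (1 h) and finally 32 and 26 (2 h). Member 2 had 10 and 7 fragments at 0 h, then 16 and 14 (30 min), 27 and 22 (1 h) and finally 39 and 26 (2 h). Between them, members 6 and 7 had log2 shifts of 0.23 and 0.24 and did not pass, and members 3 and 5 were lost at 2 h. The local background of this cluster rose from 6.21 and 6.01 times that of the library at 0 h to 9.43 and 8.45 at 2 h.

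The clusters with the largest rise in mean percentile were chosen on their tested members alone. Near Serinc5, where no member was lost, all 5 shifted up, and members 2 and 3 passed on fragments and none on ranks. Member 3 had 17 and 9 fragments at 0 h, then 21 in both lists (30 min), 32 and 38 (1 h) and finally 46 and 43 (2 h). The local background of the cluster went from 2.87 and 3.30 times that of the library at 0 h to 5.84 and 5.89 at 2 h. Near Dyrk3 3 of 7 members were lost at 2 h, and the 4 tested ones had log2 shifts from 0.13 to 0.92, none of which passed. In Tmx3 and near Cntrob 1 of 5 members was lost and 1 of the 4 tested ones shifted down in each, by 0.46 and 0.63 in log2 fragments. None passed in Tmx3, and near Cntrob 1 was higher on fragments. A cluster of 7 on chromosome Y, near Gm21860, had 1 member higher on both scales and 1 lost. The 3 clusters on that chromosome lie near Mid1-ps1 and Gm47283 at the end of the chromosome, where sequence has near-identical copies and reads could be placed in more than one, so these 19 members are uncertain. Without them 67 members were lower and 21 higher at 2 h on ranks.

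**Figure D5:**
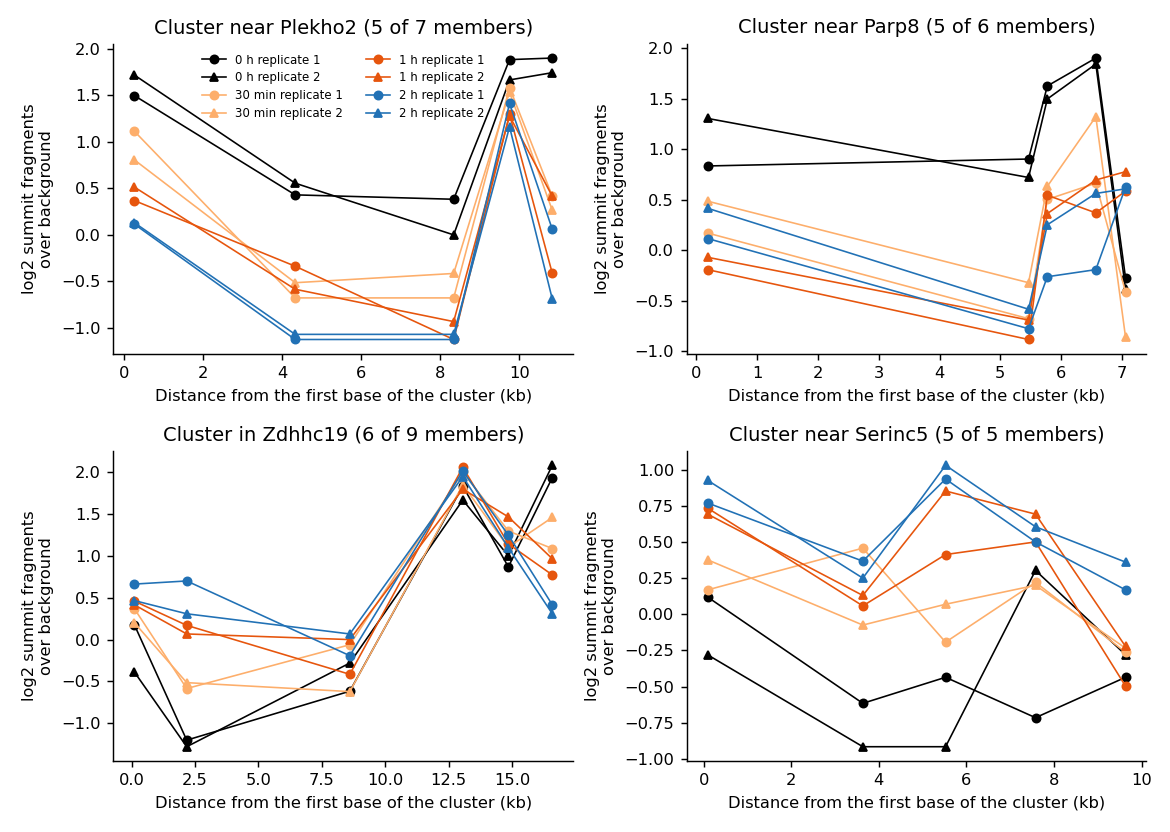
Log2 summit fragments over background of the tested members of 4 clusters against distance from the first base of the cluster, with 1 line per library. Near Plekho2 the 2 h lines (blue) lie below the 0 h lines (black) at all 5 members, near Serinc5 above them at all 5, and near Parp8 and in Zdhhc19 the lines cross.

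The 5 largest clusters, that in Zdhhc19 among them, held 0 to 2 called members each on either scale. The cluster of 11 near Ptma, the gene of prothymosin alpha, had 9 tested members, of which member 2 was lower on both scales, with 64 and 56 fragments at 0 h, against 30 and 24 at 2 h. Its strongest member, number 9, had 79 and 68 fragments at 0 h, against 69 and 85 at 2 h, which overlap. The cluster of 11 in Btd, a biotinidase gene, had 4 tested members, of which member 11 was lower on both scales, and it had lost 3 at each time, though not the same 3. Member 11 had 93 and 63 fragments at 0 h, then 47 and 46 (30 min), 22 and 15 (1 h) and finally 16 and 15 (2 h). Near Dusp2, a phosphatase of MAP kinases, 1 of 6 tested members was lower on ranks and 2 on fragments, and member 7, which had 92 and 67 fragments at 0 h, against 21 and 14 at 30 min, had no peak at 1 h or 2 h. In Xkr7 0 of 4 tested members were called on either scale.

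The cluster in Ikzf1 itself needs care. Its summits lay in coding exons for 4 of 6 members, where 1.3% of all members did. Member 1 was at chr11:11754013-11754161 and member 6 at chr11:11768893-11769560, both 100% within a coding exon (11754007 to 11754174 and 11768881 to 11769578), and members 2 and 3 had 99.1% and 99.2% of their bases in one. The cells carry an introduced IKZF1 coding sequence, whose fragments would align to these exons, so fragments of the gene and of the vector cannot be told apart here. Only members 4 and 5 lay outside coding exons, too few for a chain of 5, so the cluster itself depends on the exonic members. Member 6 had 119 and 81 fragments at 0 h, against 182 and 143 at 2 h and was not called. The intronic member 4 (chr11:11763177-11763701) had 44 and 39 fragments at 0 h, then 19 and 11 (30 min), 11 and 18 (1 h) and finally 11 in both lists (2 h). It fell by 2.1 in log2 (limma adjusted p = 0.000962; 0.00563 on ranks). Intronic member 5 had 46 and 35 fragments at 0 h, against 53 and 46 at 2 h and was not called. Without this cluster 7.62% of the tested members were lower at 2 h on ranks.

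Over the transcription factors of the B lineage, Ikzf1 included with the limit above, the 6 clusters with 37 members had 24 tested. On ranks 3 were lower at 2 h and 0 higher, on fragments 4 were lower and 1 higher, and 8 of the 37 were lost. Over all regions the shares at 2 h were 4.71% lower and 2.28% higher on ranks, 9.37% and 5.43% on fragments, and 16.6% lost. With so few members these counts are a description. Erg, an ETS factor of early progenitors, held a cluster in its intron in which members 3 and 4 were lower on fragments and member 3 also on ranks. Member 3 had 52 and 35 fragments at 0 h, then 27 and 25 (30 min), 20 and 22 (1 h) and finally 13 in both lists (2 h), and member 6 of the same cluster, with 25 and 22 at 0 h, against 17 and 23 at 2 h, was not called. Members 1 and 2, with 8 to 10 fragments at 0 h, were lost.

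The cluster of 8 whose nearest gene is Foxo1, a factor that drives recombinase expression in pre-B cells, lies 122507 bp from its start. Member 6 was lower on both scales, with 95 and 62 fragments at 0 h, then 47 and 42 (30 min), 40 and 43 (1 h) and finally 46 and 31 (2 h). Its strongest neighbour at 2 h, member 5, had 94 and 63 fragments at 0 h, against 108 and 99 at 2 h and was not called. Members 2, 4 and 8 had 53 and 41, 39 and 29, and 16 and 10 fragments at 0 h and no peak in either 2 h list. Near Bach2, a repressor that restrains plasma cell differentiation, member 6 rose on fragments alone, from 10 and 12 at 0 h to 17 and 19 (30 min), 31 and 34 (1 h) and finally 39 and 35 (2 h). In Mef2c and near Irf8, genes of factors for B cell development, no tested member was called on either scale. The Irf8 cluster lies 5252 bp from its start, inside the long read-through gene Gm20388.

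For the pre-B receptor list, 2 clusters with 12 members had 8 tested, 0 called on ranks, 2 lower on fragments and 2 of 12 lost, to be read against the same shares. Near Igll1 member 2 had 64 and 42 fragments at 0 h, then 45 and 48 (30 min), 23 and 30 (1 h) and finally 21 and 22 (2 h), and was lower on fragments (log2 shift -1.45, limma adjusted p = 0.0023) but not on ranks (limma adjusted p = 0.0537). Member 1 of the same cluster, with 41 and 38 at 0 h, against 45 and 52 at 2 h, was not called. Near Plcg2 member 7 was lower on fragments, from 64 and 35 at 0 h to 26 and 23 at 2 h, and the other 5 tested members had log2 shifts between -0.15 and 0.47.

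The 3 clusters at genes called repressed in the text of the study had 10 tested members, 0 called on ranks and 6 lower on fragments, and 2 of 17 members were lost. Over all regions the shares at 2 h were 4.71% lower on ranks, 9.37% lower on fragments and 16.6% lost. The study chose these genes on the same cells, and with so few members the counts are a description. In the cluster of 7 near Plekho2 all 5 tested members shifted down, 4 of them past the threshold on fragments. Member 7 had 86 and 57 fragments at 0 h, then 32 and 24 (30 min), 18 and 28 (1 h) and finally 25 and 13 (2 h), and member 6, next to it, had 85 and 54 at 0 h, against 64 and 47 at 2 h and was not called. In percentile of fold member 6 had 62.3 and 58.7 at 0 h, against 89.8 and 83.3 at 2 h, while the mean local background of the cluster went from 11.4 and 11.9 times that of the library to 4.86 and 4.53. The 2 scales thus differed in direction for this member, and neither change passed (limma adjusted p = 0.0443 on ranks and 0.0989 on fragments). In Ramp1, which encodes a partner of peptide hormone receptors, member 3 was lower on fragments, with 90 and 55 at 0 h, then 52 and 41 (30 min), 55 and 31 (1 h) and finally 41 and 33 (2 h), and member 5, with 48 and 28 at 0 h, was lost at 2 h.

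Sequence around the summits was compared over windows of 200 bases. Windows of members had a mean GC content of 51.6%, against 49.0% in other distal regions. The core GGGAA, searched on both strands, was in 50.2% of member windows, 47.1% of other distal windows and 47.5% of all windows with a peak in both 0 h lists. Every member held it in 7 of 228 clusters and no member in 5. The CTCF motif, searched as CCA, any 2 bases, AG, any 2 bases, GGC, was in 8.47% of member windows, 17.4% of other distal windows and 14.4% of all. The EBF motif, TCCC, any 2 bases, GGGA, a palindrome that holds GGGA and can overlap GGGAA, was in 4.73%, 3.50% and 3.01%. The RUNX word TGTGGT was in 25.4%, 28.8% and 24.7%, the E-box CAGGTG in 18.2%, 17.2% and 16.0%, and the AP-1 word TGANTCA in 7.94%, 7.97% and 6.99%. A match is a description and not a bound site.

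The shares were also set out by the fate of members. GGGAA was in 62.1% of the 140 members lower on fragments at 2 h, 21.1% of the 38 higher ones and 42.4% of the 694 that were not called. It was in 63.4% of the 257 members lost at 2 h and in 44.8% of the 924 that had a peak in both 2 h lists. Among other distal regions the shares were 55.6% for those lower and 29.4% for those higher, and 59.0% for those lost. The CTCF motif was in 0.778% of the members lost at 2 h and in 11.7% of the members in both 2 h lists, against 3.54% and 22.0% among other distal regions. The EBF motif was in 9.29% of members lower on fragments and 2.88% of those not called. The E-box CAGGTG was in 36.8% of the 38 members higher on fragments, 15.7% of the 140 lower ones and 18.3% of those not called. On ranks that difference was not seen, with 18.2% of the 22 higher members, 13.4% of the 67 lower ones and 19.2% of those not called. Among other distal regions called on fragments, CAGGTG was in 24.1% of those higher and 14.2% of those lower. The EBF motif was there in 3.40% of those higher and 6.07% of those lower. Windows share clusters and are not replicates, so these shares carry no test. Starting level differed between these sets too, and its part in the shares was not tested.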

How the data were processed

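ATAC-seq peak lists of 8 libraries were used, 4 groups with 2 replicates each. Per the labels and methods, the authors aligned reads with BWA 0.7.17, shifted read ends for Tn5 and kept short, nucleosome-free fragments with deepTools 2.3.5, and called peaks in each library alone, with no control, with MACS2 2.1.2. The submitters' processing notes also name bcl2fastq 2.20.0, SAMtools 1.9 and bedtools 2.27.1. All peaks lay within the GRCm38 chromosomes. The deposited lists give the fold enrichment at the summit (a ratio to the caller's local background), the -log10 p-value and the -log10 q-value, with a lowest -log10 q-value of 1.3. Peaks were merged over libraries into 174718 consensus regions. The study's exclusion list was not used here. Every value column was mapped to a library, and 0 were unmapped. Start sites were those of GENCODE M21.

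Members, lists and tests were chosen with earlier results of these data known. Within every list the regions found in all 8 were sorted by fold, and normal scores of the ranks were tested with limma 3.58.1 (R 4.3.3) over 47875 regions, all 4 groups in a single fit, without a replicate block. Calls used a Benjamini-Hochberg adjusted p under 0.01. Whole numbers of summit fragments were recovered from the deposited fold and -log10 p-value for all but 20 peaks, divided by the library's background, put on a log2 scale, centred on the median over tested regions and tested in the same way, as an alternative to ranks. Depth was taken as the background of 0.26 to 0.405 fragments per base and limits precision at summits of a median of 11 to 14 fragments. On simulated data with 200 of 47875 regions changed, limma on ranks called 45% of the changed regions, 89.3% of those with a shift of 2 or more, and 2 unchanged regions.

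Named clusters were the 5 with most members, 5 each at the extremes of mean percentile shift (downward and upward) where 4 or more members were tested, the 5 with the largest share lost where there were 6 or more members, and those overlapping or nearest to a listed gene. Named members were the 5 largest falls and 5 largest rises among called members, and the called members of named clusters. Other members of those clusters are given for contrast. Some items that these rules name are not reported here. Sequences were read from the RefSeq genome of GRCm38, 100 bases on each side of the summit in 0 h replicate 1, with pysam 0.24.0. Alternatives covered the gap, chain length, peak strength, threshold, ranking, region set, prior, replicate block and single libraries.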

Additional observations from a re-analysis of the deposited data

How the results depend on the processing

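The number of members and clusters followed the chaining rule: 485 and 88 with a largest gap of 3 kb, 4735 and 760 with 10 kb, 2910 and 628 with chains of 4 or more, 157 and 18 with chains of 8 or more, 643 and 115 with peaks of a -log10 q-value of at least 5, and 3147 and 538 without 0 h replicate 2. Limma's rank calls moved with the threshold and the value. An adjusted p under 0.05 gave 19 lower and 8 higher at 30 min, 106 lower and 57 higher at 1 h, and 139 lower and 71 higher at 2 h. Ranking within whole lists gave 12 lower at 1 h and 36 at 2 h. Regions in at least 2 lists, with absent ones at the lowest rank, gave 16 lower at 30 min, 115 lower and 2 higher at 1 h, and 173 lower and 7 higher at 2 h. Summit fragments gave 22 lower at 30 min, 111 lower and 30 higher at 1 h, and 140 lower and 38 higher at 2 h. Ranks of the -log10 p-value gave 15 higher at 1 h. A trended, robust prior gave 2 lower and 3 higher at 30 min, 21 higher at 1 h, 35 higher at 2 h, and 2 lower for 2 h against 30 min. In most cases the cause was not tested; a threshold of 0.05 is looser by construction.

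With the replicate number as a block limma called 21 lower and 5 higher at 1 h, and 54 lower and 18 higher at 2 h. Same-numbered replicates shared only a number, with correlations of replicate differences between 0.0172 and 0.0403 over 47875 regions.

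Leaving out each library in turn leaves a single sample in a group, assumed to vary like the others. Rank calls then ran from 0 to 24 lower and 0 to 7 higher at 1 h, and from 0 to 51 lower and 0 to 17 higher at 2 h, with 0 at 30 min. On fragments they ran from 0 to 14 lower at 30 min, from 33 to 98 lower and 2 to 19 higher at 1 h, and from 77 to 133 lower and 9 to 34 higher at 2 h. Clusters with at least 50% of tested members lower on ranks numbered 0 without each of the 0 h and 2 h libraries, the only ones left out for that count. Members chosen on 1 list of 0 h numbered 1682 to 3147, in 289 to 538 clusters. Of the 24 named members 0 kept their rank call in every setting and 0 turned direction.

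The clusters with at least 50% of tested members lower numbered 6 by -log10 p-value, 1 by rank within whole lists, 0 with 5 or more tested members and 21 on fragments. Those with all tested members moving one way numbered 3 with 5 or more tested members and 45 on fragments. The common part of the shift at 2 h was -10.6% on percentiles of fold, -0.0105% on those of the -log10 p-value and, with the opposite sign, 16.8% on fragments, which do not contain the local background. With the clusters kept as chosen, counts of lost members and of gained regions stayed within 1.5 times their values under the alternatives run. Some other rules for choosing members moved the share lost at 2 h, which was 19.6%. It was 13.8% with peaks of a -log10 q-value of at least 5 and 22.3% with chains of 8 or more. Without 0 h replicate 2 it was 27.2% of 3147 members. The remaining rules gave 19.2% to 21.8%. The added alternatives (fragments for cluster counts and single libraries, -log10 p for the common part, clusters without Ikzf1, all chromosomes but Y) were chosen after seeing the data. A lost member is one without a detected peak at the depth of those lists, and the part of depth in the losses was not tested.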
